A study of Rattus norvegicus with 24 samples.

Results

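The 10 genes described here carry arginine from its synthesis to its breakdown and on to the polyamines. They were chosen by name: every probe for a gene transcript whose name in the array files, or whose older name traced through its transcript accession, was Arg1, Arg2, Ass1, Asl, Nos2, Odc1, Amd1, Srm, Sms or Sat1. That gave 12 probes for the 10 genes, out of 41012 gene probes on the array, and all 10 genes were among the 26776 features tested. Arg1 and Ass1 were already known to be high in tumours of untreated rats when the genes were proposed. For these 10 genes, tumour against normal tissue in untreated rats is therefore given as a description without tests. Arg1 and Ass1 are tested only between tumour and normal colon of DSS rats. Those tests are not free of the untreated rats, because all groups of the study share an estimate of the spread.

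Arginine is built from citrulline by argininosuccinate synthase (Ass1) and argininosuccinate lyase (Asl). The arginases Arg1 and Arg2 split it into ornithine and urea, while the inducible nitric oxide synthase Nos2 turns it into nitric oxide and citrulline. Ornithine decarboxylase (Odc1) makes the first polyamine, putrescine, and Srm and Sms extend it to spermidine and spermine with a donor supplied by Amd1, until Sat1 acetylates the products for breakdown or export. Proliferating intestinal epithelium makes polyamines, and myeloid cells of inflamed tissue are a known source of Arg1 and Nos2.

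RNA came from male (ACIxF344)F1-Pirc rats with the genotype Apc-Pirc/+, 1 mutant and 1 normal copy of the tumour suppressor Apc, all aged 97 days. The 4 groups were colonic tumours of rats given dextran sodium sulfate (DSS), tumours of untreated rats, normal colon of DSS rats and normal colon of untreated rats, with 5 rats in each. DSS, an irritant of the colonic lining (molecular weight 500000), was given at 4% in drinking water on days 40 to 47 and 54 to 61. Tumour and normal distal colon came from the same rat, with rats 1, 5, 6, 7 and 9 given DSS and rats 2, 3, 4, 8 and 10 untreated. Every group carries the Apc mutation, so no group of the study is wild type. The pool of colon RNA against which all 24 arrays were read came from Apc wild-type rats of a range of ages. A value below is log2 of the sample over that pool, so 0 means equal to the pool and 1 means a doubling, and a difference is in log2 units with its standard error (SE).

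In the sample channel, the share of probes well above background was 47.6% to 70.5% on 21 arrays. It was 86.9% to 95.2% on 3 arrays of raised signal, which held the tumour of rat 9, the normal colon of rat 4 and 1 of the 2 arrays of normal colon from rat 2. Slides fell into 2 sets, with 3 rats of each group on slide set 1 and 2 on slide set 2. Normal samples from DSS rats 1 and 5 had a correlation across features of 0.969, above the 0.812 to 0.967 between repeat arrays of 1 sample, where features are not independent replicates. The colon epithelium genes Cdx2, Vil1, Epcam and Cdh17 were well above background on all 24 arrays. Of 10 measured markers of squamous epithelium, 10 rose in normal colon of DSS rats over untreated rats, with a mean over the list of 3.13 to 5.11 in the 5 DSS rats and of -0.45 to 1.57 in untreated rats. In tumours the same list ran from -0.39 to -0.21 in DSS rats and from -0.30 to -0.06 in untreated rats. Each gene was read by a 60-base probe, and 4 are printed here to show what the array measures at 3 points of the pathway: synthesis of arginine (Ass1 and Asl), its oxidation (Nos2) and polyamine acetylation (Sat1).
Ass1: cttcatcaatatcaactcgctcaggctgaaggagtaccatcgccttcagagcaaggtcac
Asl: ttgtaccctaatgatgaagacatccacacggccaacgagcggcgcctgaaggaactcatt
Nos2: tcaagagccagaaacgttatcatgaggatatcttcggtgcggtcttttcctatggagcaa
Sat1: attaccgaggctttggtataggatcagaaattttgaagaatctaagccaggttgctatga
The Nos2 probe was spotted 10 times on each array and its spots were averaged, whereas the other 3 had 1 spot. No base is in capitals in these 4 because no part of a probe is singled out.

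Tumours of DSS rats were set against the normal colon of the same rats, in a fit of group means that did not pair tissues by rat. Here all 10 genes were tested. Of the 10, 2 rose and 8 did not pass (adjusted p under 0.05, Benjamini-Hochberg over all features), while 7.53% of all features passed (12.3% with the rat as a block), 3.71% as increases and 3.82% as decreases. The 2 were the synthesis enzyme Ass1 and the arginase Arg1. The median difference of the 10 genes was 0.11, beside 0.02 over all features.

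Ass1 measured 1.10, 0.997, 1.89, -0.13 and 0.58 in tumours of DSS rats 1, 5, 6, 7 and 9, against -1.37, -1.51, -0.64, -1.41 and -2.13 in their normal colon. The groups did not overlap, and the tumour was higher in 5 of 5 rats. The difference was 2.30 ± 0.41 (SE), a 4.91-fold rise (adjusted p = 0.00179), and it ranked 20 of 26776 features from the top. Within rats it ran from 1.28 in rat 7 to 2.70 in rat 9. It passed within slide set 1 (2.50 ± 0.44, adjusted p = 0.00742) and not within slide set 2, which holds 2 rats a group (1.99 ± 0.66, adjusted p = 0.272).

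Arg1 measured 3.64, 3.69, 3.40, 3.90 and 3.96 in the same 5 tumours, against 1.29, 1.47, 2.61, 2.72 and 3.11 in normal colon. Every tumour lay above every normal sample, and the tumours lay closer together than the normal colon, where rats 1 and 5 were lowest. The difference was 1.48 ± 0.42, a 2.78-fold rise (adjusted p = 0.0371), and it was higher in 5 of 5 rats. It passed within slide set 1 (1.78 ± 0.39, adjusted p = 0.0213) and not within slide set 2 (1.01 ± 0.30, adjusted p = 0.223). The call was also lost without rat 1 (1.26, adjusted p = 0.148), rat 4 (1.48, 0.0516), rat 5 (1.29, 0.168), rat 6 (1.65, 0.0586), rat 7 (1.55, 0.0724) or rat 9 (1.63, 0.0577), without second arrays (1.39, 0.0567), without the 3 arrays of raised signal (1.41, 0.0923), with no filter on dim probes (1.48, 0.0525), and when the alike normal samples of rats 1 and 5 were counted as 1 (1.26 ± 0.43, adjusted p = 0.112). Whole tissue was measured, so fewer cells of a type and less RNA per cell cannot be told apart. Beside these 2 genes, 10 of 10 squamous markers fell in the same comparison, 0 of 6 neutrophil markers passed, and of 9 macrophage markers 1, the receptor Csf1r, rose (0.45). Of the other epithelial markers, 3 of 4 goblet cell markers fell, and 5 of 8 absorptive colonocyte markers fell and 1 rose. The part of these cells in the values of Arg1 and Ass1 was not tested.

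**Figure D1:**
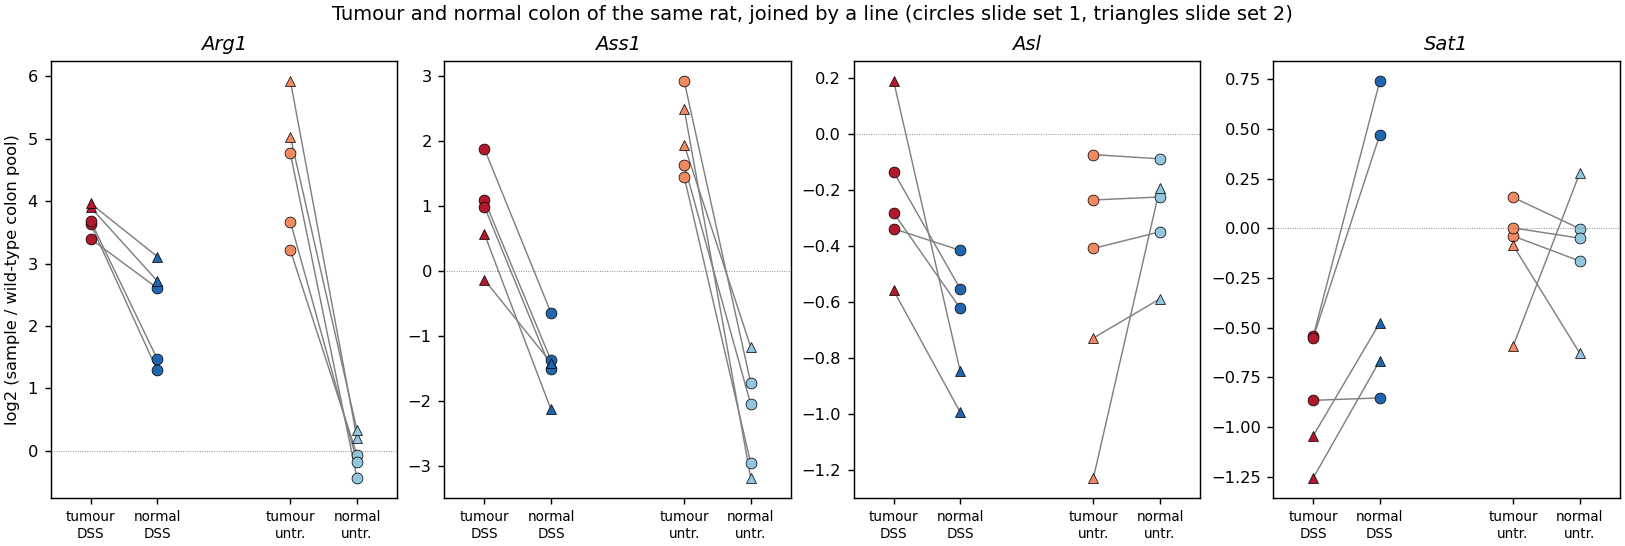
Values of Arg1, Ass1, Asl and Sat1 on the y axis (log2 of sample over the wild-type colon pool), with tumour and normal colon of the same rat joined by a line, DSS rats left and untreated rats right. In DSS rats the Arg1 lines drop by 0.79 to 2.35 and the Ass1 lines by 1.28 to 2.70, and the Sat1 tumour values lie below the normal value of the same rat.

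The remaining 8 genes did not pass in this comparison. Sat1, which marks spermidine and spermine for breakdown, measured -0.54, -0.55, -0.87, -1.26 and -1.04 in tumours of DSS rats 1, 5, 6, 7 and 9, against 0.74, 0.47, -0.85, -0.67 and -0.47 in normal colon. The tumour value was lower in all 5 rats, by only 0.01 in rat 6, and the groups overlapped. The widest gaps, -1.29 and -1.02, were those of rats 1 and 5, whose normal samples were as alike as repeat arrays. The difference of -0.70 ± 0.27 had an adjusted p of 0.137, and of 0.0483 with the rat as a fixed block. It also passed with the rat as a random block (adjusted p = 0.0491), with the slide as a block (0.0437) and with array weights (-0.87, 0.0424), so it passed under 4 of 18 other settings. With arrays centred on their median in place of loess the difference was 0.04 ± 0.51 (adjusted p = 0.964). Asl, the second step of arginine synthesis, was higher in the tumour of 5 of 5 rats with a difference of 0.46 (95% interval 0.07 to 0.85, adjusted p = 0.159). Arg2, the mitochondrial arginase, was lower in the tumour of each of the 4 rats measured, at -0.62 (95% interval -1.25 to 0.01, adjusted p = 0.268). The rat 1 tumour is missing because its Arg2 spot was not uniform and was dropped. In rat 6 the averaged gap was only -0.13, and its 2 tumour arrays disagreed, at -0.81 and -2.03, against -1.41 and -1.18 in normal colon. The arginases had differences of opposite sign, of which only that of Arg1 passed.

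No gene of polyamine synthesis passed between tumour and normal colon of DSS rats. The difference was 0.05 for Odc1 (95% interval -0.39 to 0.49), 0.07 for Amd1 (95% interval -0.21 to 0.36) and 0.02 for the spermidine synthase Srm (95% interval -0.45 to 0.49). The spermine synthase Sms had 0.14 (95% interval -0.18 to 0.47), and Nos2 had 0.27 (95% interval -0.37 to 0.91). The second probes gave 0.36 for Odc1 (adjusted p = 0.205) and 0.03 for Amd1.

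**Figure D2:**
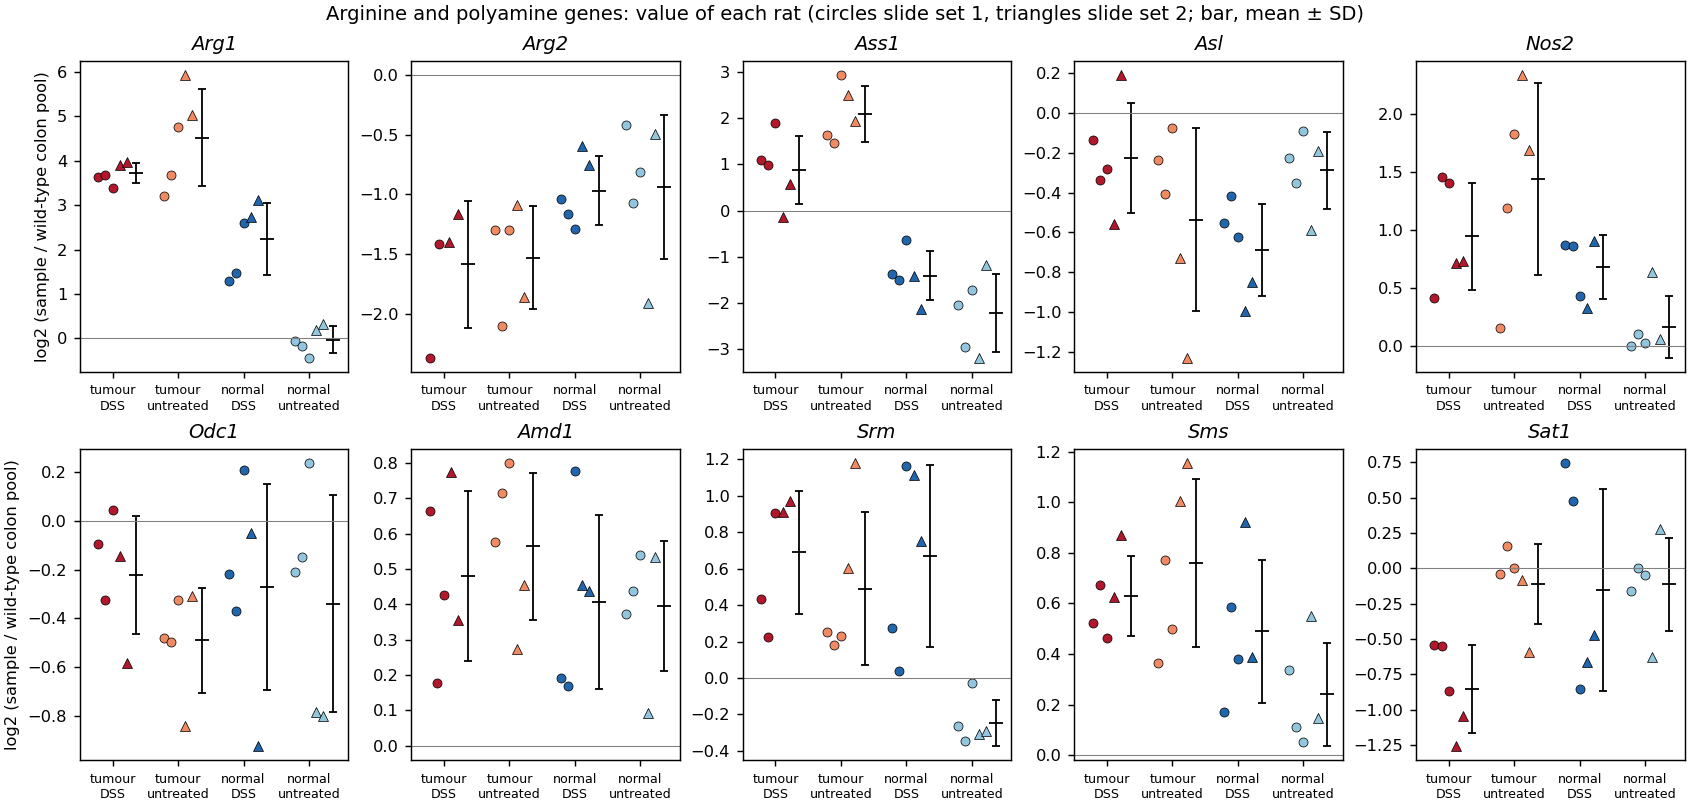
Each rat's value for the 10 genes on the y axis (log2 of sample over the wild-type colon pool), by group on the x axis, with circles for slide set 1, triangles for slide set 2 and a bar for the mean ± SD. Arg1 in normal colon of untreated rats lies between -0.43 and 0.33, below all other groups, and Sat1 in DSS tumours lies between -1.26 and -0.54.

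In untreated rats the gaps between tumour and normal colon were wider for Arg1 and Ass1, given here as a description. Both were proposed with their high values in untreated tumours known, so the choice itself favours wide gaps here. Arg1 measured 3.21, 3.67, 4.76, 5.93 and 5.03 in tumours of rats 2, 3, 4, 8 and 10, against -0.06, -0.17, -0.43, 0.20 and 0.33 in normal colon. Ass1 measured 1.64, 1.46, 2.93, 2.50 and 1.95 in the same tumours, against -2.05, -2.95, -1.72, -3.18 and -1.17 in normal colon. Its signal was weak in that normal colon, at sample intensities of 87.6 to 335 before correction. Rat 10 had the lowest intensity (87.6, pool 1739) but the highest value, whereas rat 8 (113, pool 1774) had the lowest value. The Ass1 value of rat 10 is therefore uncertain, and the cause was not tested. Neither gene's groups overlapped, and the mean differences were 4.55 for Arg1 and 4.31 for Ass1, the 4th and 6th of 26776 features from the top. Nos2 averaged 1.44 ± 0.83 in untreated tumours and 0.17 ± 0.27 in normal colon (SD, n = 5 each), Srm 0.49 ± 0.42 and -0.25 ± 0.13, and Sms 0.76 ± 0.33 and 0.24 ± 0.20. Odc1 averaged -0.49 ± 0.21 in untreated tumours and -0.34 ± 0.45 in normal colon. The Odc1 difference was -0.15 on that probe and 0.14 on the second, so the probes differed in sign. Of the 10 genes, 5 were past the threshold, all with higher values in tumours, beside 17.9% of all features (8.54% higher and 9.39% lower). Arg1 and Ass1 were known from this comparison when the genes were proposed, so that count tests nothing and nothing is read from it.

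DSS against no treatment in normal colon gave 1 increase among the 8 genes tested, where 7.2% of all features passed, 3.88% as increases and 3.32% as decreases. This comparison shares the normal colon of DSS rats with the tumour comparison above, so the values stand side by side and are not separate evidence. The gene was Srm, which makes spermidine. It measured 0.28, 0.04, 1.16, 1.11 and 0.75 in normal colon of DSS rats 1, 5, 6, 7 and 9, against -0.26, -0.35, -0.03, -0.31 and -0.29 in untreated rats 2, 3, 4, 8 and 10. Every DSS value lay above every untreated one, narrowly so in rat 5. The difference was 0.92 ± 0.22, a 1.89-fold rise (adjusted p = 0.0182). It did not pass without rat 6 (0.79 ± 0.23, adjusted p = 0.0575) or without rat 7 (0.80 ± 0.23, adjusted p = 0.0509), within slide set 1 (0.70 ± 0.26, adjusted p = 0.105) or within slide set 2 (1.23 ± 0.22, adjusted p = 0.138). With arrays centred on their median in place of loess it was 0.59 ± 0.46 (adjusted p = 0.757).

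Srm and Ass1 are the genes with a passed test that have a promoter entry in RefSeq, and 7 of the 10 genes have one. The entries run from 250 bases before to 50 after the gene start in build GRCr8, and capitals mark the motif CACGTG, which reads the same on both strands. Its letters occurred in 1 of the 7 promoters, that of Srm, and in 6.42% of all 33469 promoters of the same length. A match describes the letters and not a bound site.
Srm promoter, chr5:164308752-164309051, plus strand: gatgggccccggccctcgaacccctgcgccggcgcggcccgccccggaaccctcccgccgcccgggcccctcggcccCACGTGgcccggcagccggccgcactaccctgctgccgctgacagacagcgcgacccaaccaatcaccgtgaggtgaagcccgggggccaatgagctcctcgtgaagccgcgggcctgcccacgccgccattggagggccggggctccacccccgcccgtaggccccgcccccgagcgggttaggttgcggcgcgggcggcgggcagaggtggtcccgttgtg
Ass1 promoter, chr3:35149480-35149779, plus strand: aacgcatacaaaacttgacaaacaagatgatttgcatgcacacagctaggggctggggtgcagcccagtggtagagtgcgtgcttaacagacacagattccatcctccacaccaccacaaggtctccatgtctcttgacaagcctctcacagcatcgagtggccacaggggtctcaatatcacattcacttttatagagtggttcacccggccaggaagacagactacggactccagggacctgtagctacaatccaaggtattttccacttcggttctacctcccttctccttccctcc

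Arg1 in normal colon averaged 2.24 ± 0.81 in DSS rats and -0.03 ± 0.30 in untreated rats (SD, n = 5 each), a difference of 2.27 with no overlap, given without a test. Ass1 averaged -1.41 ± 0.53 in DSS rats and -2.21 ± 0.84 in untreated rats, and those groups overlapped. Asl had a difference of -0.40 (95% interval -0.79 to -0.01, adjusted p = 0.229) and Nos2 one of 0.51 (95% interval -0.13 to 1.16, adjusted p = 0.365). The Nos2 signal was well above background on 4 of 7 arrays of untreated normal colon and the pool on 8 of 24 arrays, so its ratios are pulled toward 0 by the offset added to weak signals. Odc1, Amd1, Sms, Arg2 and Sat1 had differences of 0.07, 0.01, 0.25, -0.03 and -0.04, and none passed.

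Marker lists were read in the same samples. In normal colon the mean of 6 neutrophil markers ran from 0.98 to 1.34 in DSS rats, against -0.08 to 0.37 in untreated rats, and 2 of the 6 rose. The 2 were S100a8 (3.15) and S100a9 (2.68), calgranulins of neutrophils and of stressed epithelium. They carry much of the list mean: the median difference of the 6 was 0.43, and the other 4 did not pass. The mean of 9 macrophage markers ran from -0.05 to 0.15 in DSS rats and from -0.27 to 0.01 in untreated rats, which overlapped, and 1 of the 9, Cd68, rose (0.95). In tumours, the neutrophil list ran from 1.12 to 1.38 in DSS rats and from 1.07 to 2.30 in untreated rats, and the macrophage list from 0.14 to 0.49 and from 0.11 to 0.65. The 8 absorptive colonocyte markers had list means of -3.51 to -2.55 in DSS tumours and -1.91 to -1.32 in normal colon of the same rats. Mpo of neutrophils and Cd163 of macrophages were too dim to pass the filter. Of 5 genes listed for hepatocytes, the cells richest in Arg1, Alb and Cps1 were too dim. Ttr, Apoa1 and Otc were above background on all 24 arrays, and Apoa1 fell in tumours of DSS rats (-1.20) and of untreated rats (-1.08). Which cells gave the signal of Ttr, Apoa1 and Otc was not tested. The part of the listed cell types in the value of Srm, and in those of Arg1 and Ass1 in normal colon, was not tested.

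**Figure D3:**
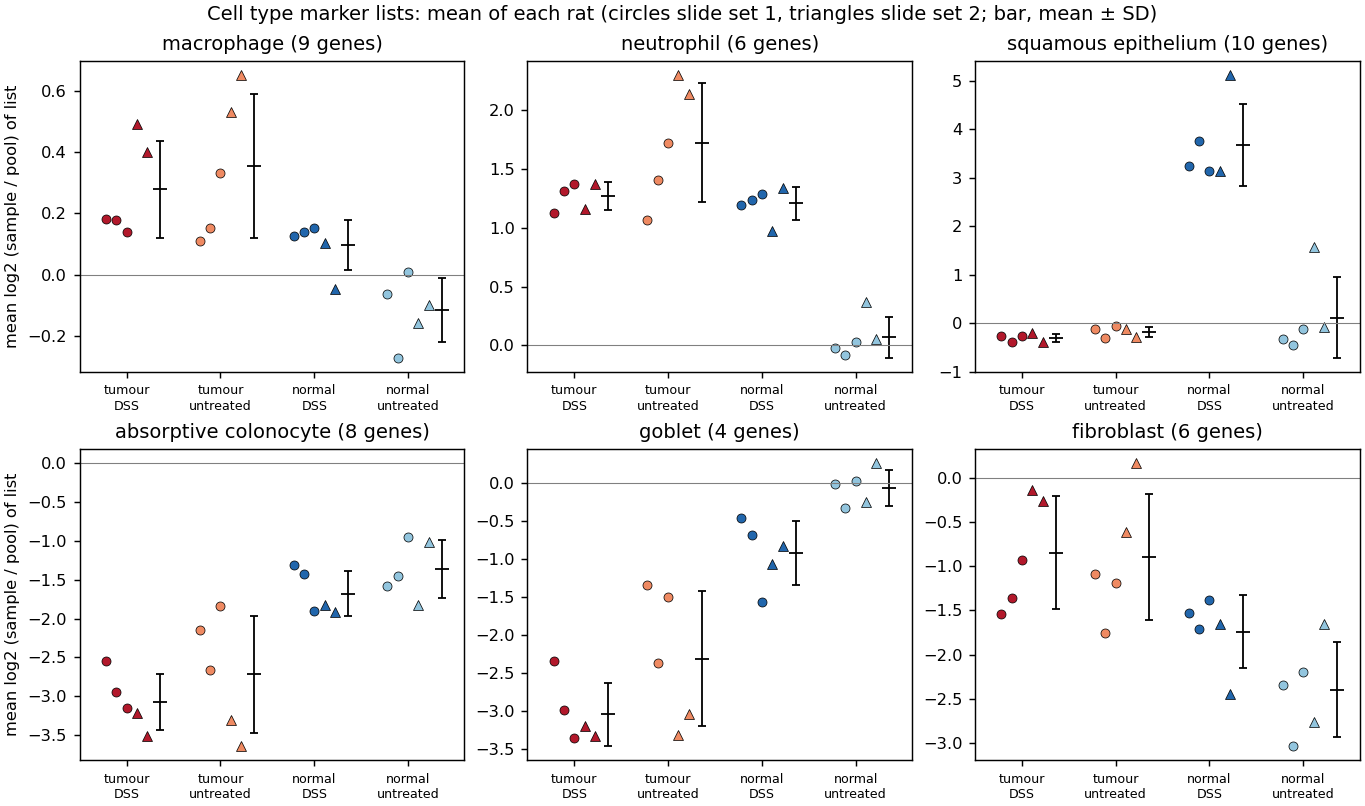
Mean log2 of sample over pool (y axis) of 6 lists of cell type markers by group (x axis), 1 point per rat, circles for slide set 1, triangles for slide set 2, and a bar for the mean ± SD. Squamous markers are above 3 in every normal colon of DSS rats, and the neutrophil list lies between 0.98 and 2.30 in all groups but normal colon of untreated rats.

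DSS against no treatment in tumours called none of the 8 genes tested and 0 of all 26776 features (0% called), with 1688 features, 6.3%, at an unadjusted p under 0.05. Over the other settings tried, at most 0.0149% of features passed. Sat1 measured -0.54 to -1.26 in DSS tumours, listed by rat above, against -0.04, 0.16, 0.0030, -0.08 and -0.59 in tumours of untreated rats 2, 3, 4, 8 and 10. The lowest untreated value, that of rat 10, lay inside the DSS range, so the groups overlapped. The difference was -0.74 ± 0.27 (unadjusted p = 0.0126, adjusted p = 0.586). Odc1 had 0.27 (95% interval -0.17 to 0.71) on its main probe and 0.38 on the second (adjusted p = 0.667). On that second probe the tumours ran from 0.44 to 0.86 in DSS rats and from 0.13 to 0.31 in untreated rats, so the groups did not overlap on 1 Odc1 probe and overlapped on the other. Arg1 averaged 3.72 ± 0.23 in DSS tumours and 4.52 ± 1.09 in untreated tumours, and Ass1 0.89 ± 0.74 and 2.10 ± 0.61, both overlapping and without a test.

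The difference between the DSS effect in tumours and that in normal colon was tested for the same 8 genes, and none passed where 2.49% of all features did (5.63% with the rat as a block), 0.837% with a positive and 1.65% with a negative difference. Asl came nearest, with 0.71 ± 0.26 (adjusted p = 0.181), followed by Nos2 at -1.01 ± 0.43 (adjusted p = 0.267, and 0.0489 with the slide as a block) and Srm at -0.72 ± 0.32 (adjusted p = 0.288). Arg1 had -3.07 ± 0.59 and Ass1 -2.01 ± 0.58, without tests. Both were proposed with their high values in untreated tumours known, and that choice itself favours a negative difference here. The tumour minus normal gap of each rat shows what these differences hold: for Arg1 it was 0.79 to 2.35 in DSS rats and 3.27 to 5.73 in untreated rats, and for Ass1 1.28 to 2.70 and 3.11 to 5.68. The Ass1 gap of 3.11 is that of rat 10, whose weak signal in normal colon is given above.

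**Figure D4:**
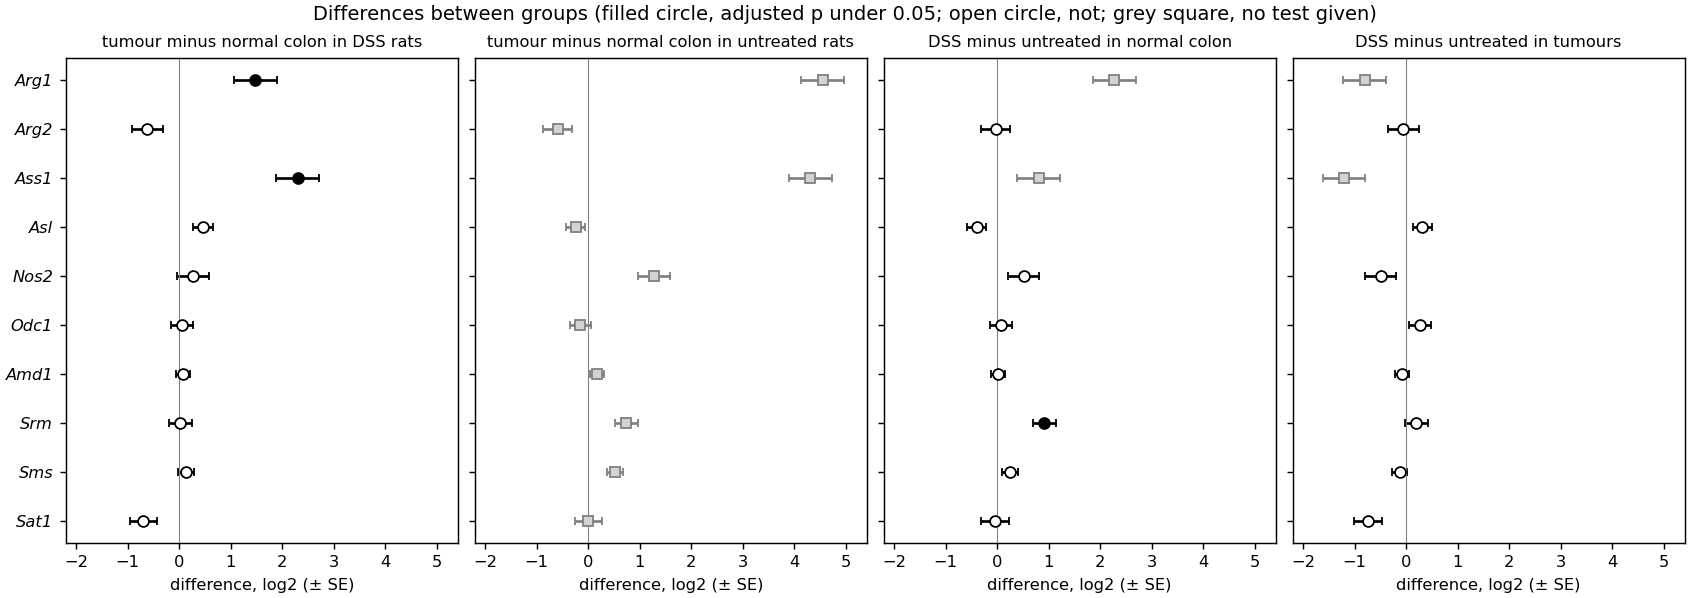
Differences in log2 (x axis, ± SE) of the 10 genes (rows) in 4 comparisons (panels), with filled circles for an adjusted p under 0.05, open circles for tested genes that did not pass and grey squares where no test is given. Filled circles are Arg1 (1.48) and Ass1 (2.30) in DSS rats and Srm (0.92) in normal colon.

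Other genes of the pathway were counted from 9 lists of 60 genes, of which 50 were tested. In tumours against normal colon of DSS rats, 4 rose and 1 fell, or 10% of the 50, beside 7.53% of all features, and the median difference was 0.17, beside 0.02. Oat, which turns ornithine toward proline or glutamate in the mitochondrion, rose by 1.64 ± 0.18 (adjusted p = 1.7e-05). It measured 0.29, -0.11, -0.25, 0.23 and 0.28 in tumours of DSS rats 1, 5, 6, 7 and 9, against -1.58, -1.46, -1.34, -1.74 and -1.63 in normal colon, with no overlap. It passed within both slide sets, at 1.44 ± 0.28 in set 1 and 1.95 ± 0.14 in set 2. Oat also fell by 0.72 ± 0.18 in normal colon of DSS rats against untreated rats (adjusted p = 0.0216), and its DSS effect differed between the tissues by 1.47 ± 0.26 (adjusted p = 0.00403). Squamous markers had risen in that normal colon of DSS rats, and their part in the Oat values was not tested. The tumour values in untreated rats were -0.67, 0.02, -1.37, -0.53 and -0.73, against -0.64, -0.91, -0.73, -0.81 and -1.06 in normal colon of rats 2, 3, 4, 8 and 10, and the groups overlapped. The decrease in normal colon did not pass without rat 1, 2, 7 or 9 (adjusted p up to 0.0683) and held under 11 of 17 other settings (up to 0.674 with median centring). The difference between tissues held under 15 of 18 (up to 0.213).

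Agmat, which acts on the arginine product agmatine, was higher by 0.77 ± 0.20 in tumours of DSS rats than in their normal colon (adjusted p = 0.0241). It averaged 0.04 in these tumours and -0.11 in untreated tumours, against -0.73 in normal colon of DSS rats and -0.17 in that of untreated rats. The group that stood apart was thus normal colon of DSS rats, where squamous markers had risen, and their part was not tested. Gch1, which starts synthesis of the nitric oxide synthase cofactor, was lower by 0.90 ± 0.26 in tumours of DSS rats than in their normal colon (adjusted p = 0.0372). The arginine carrier Slc7a3 was also called, but its probe was well above background on 5 arrays only, and no size is given. The Agmat call was lost without rat 1, 5 or 9 (adjusted p up to 0.0761), that of Gch1 without rat 1, 3, 5, 6, 7 or 9 (adjusted p up to 0.111) and that of Slc7a3 without rat 1, 2, 3, 4, 6, 7 or 9. Under other settings Agmat held in 16 of 18 (adjusted p up to 0.173), Slc7a3 in 10 of 17 (up to 0.394) and Gch1 in 13 of 18 (up to 0.853, at a difference of -0.17 with median centring).

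In tumours of untreated rats 5 of the 50 rose and 7 fell, or 24%, beside 17.9% of all features. The cationic amino acid carrier Slc7a1 rose by 1.33 ± 0.36 (adjusted p = 0.0157) and the neutral carrier Slc7a8 by 1.22 ± 0.41 (adjusted p = 0.0443). Apip, of the methylthioadenosine salvage that follows polyamine synthesis, rose by 0.81 ± 0.16 (adjusted p = 0.00199). Aldh18a1, which leads glutamate toward proline and ornithine, fell by 1.10 ± 0.17 (adjusted p = 0.000252), and Nags, which makes the activator of the urea cycle, fell by 1.28 ± 0.27 (adjusted p = 0.00265). Pts, of cofactor synthesis, fell by 0.95 ± 0.19, Mat2b by 0.67 ± 0.15, Slc18b1 by 0.65 ± 0.19 and Gamt by 0.47 ± 0.13, while Azin2 (16 of 24 arrays above background) rose and Slc22a3 (7 of 24) fell. Calls were lost without rat 4 or 10 for Slc7a1 (adjusted p up to 0.0987), rat 3, 4, 6, 8 or 10 for Slc7a8 (up to 0.127), rat 8 or 10 for Slc18b1 (up to 0.0889), rat 3, 4 or 8 for Gamt (up to 0.0835) and rat 3, 4, 5, 8 or 10 for Azin2 (up to 0.113). Under other settings Apip held in 17 of 18, Aldh18a1, Mat2b and Pts in 16, Slc7a1, Slc18b1 and Gamt in 15, Slc7a8 in 14 and Azin2 in 11, with adjusted p up to 0.677 for Gamt. Beside them, 4 of 6 neutrophil, 5 of 9 macrophage and 4 of 6 fibroblast markers rose in untreated tumours. In the same comparison 3 of 4 goblet and 1 of 3 smooth muscle markers fell. Of 8 absorptive colonocyte markers 5 fell and 1 rose, and of 4 colon epithelium genes 1 fell. The part of these cells was not tested.

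In normal colon DSS gave 2 increases and 3 decreases among the 50 genes, or 10%, beside 7.2% of all features. Slc7a5, a large neutral amino acid carrier, rose by 0.61 ± 0.15 (adjusted p = 0.0222), and Nags fell by 0.93 ± 0.27 (adjusted p = 0.0409). Nos3 rose, above background on 19 arrays, and Slc22a3 and Oat fell. In the same comparison 10 of 10 squamous markers rose, and the part of those cells in the values of these genes was not tested. Calls were lost without rat 4, 5, 6 or 7 for Slc7a5 (adjusted p up to 0.0604), rat 1, 3 or 5 for Nos3 (up to 0.0593) and each rat but 2 and 9 for Nags (up to 0.0849). Under other settings Slc7a5 held in 11 of 17 (adjusted p up to 0.457), Nags in 12 (up to 0.186), Nos3 in 15 (up to 0.754) and Slc22a3 in 15 of 16 (up to 0.127). In tumours DSS gave none of the 50, and the difference between tissues gave 1 (2%), Oat. The listed decarboxylase control genes (3 tested: Oaz1, Oaz2 and Azin1) and the hypusine genes (2 tested) had no call in any of the 5 comparisons. Azin2, whose name places it with Azin1, was counted in the list of other arginine use. It rose in tumours of untreated rats, as given above.

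**Figure D5:**
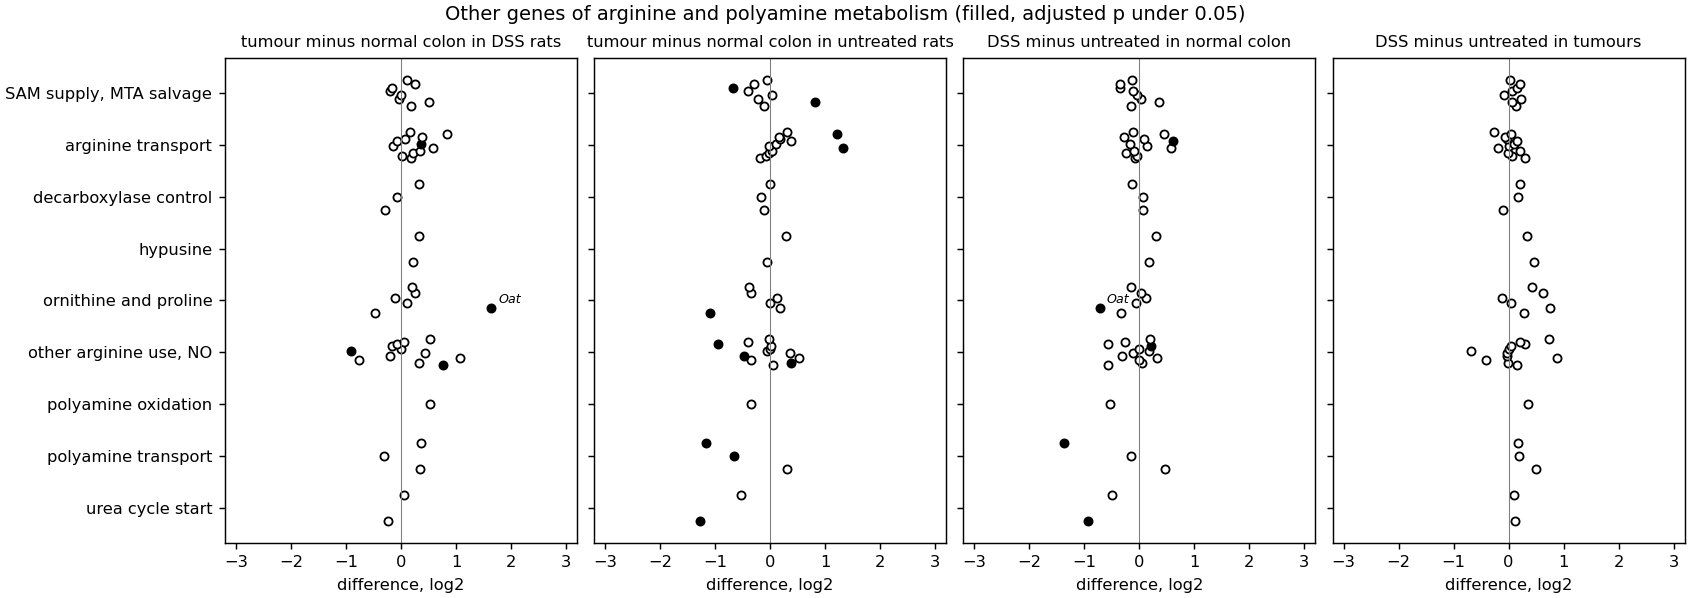
Differences in log2 (x axis) of 49 other pathway genes by list (rows) in 4 comparisons (panels), filled where the adjusted p was under 0.05. Oat (1.64) is named in tumours against normal colon of DSS rats, and no point is filled for DSS against no treatment in tumours.

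Over the 20 samples, the genes most like Arg1 by Pearson r among 12620 features with a current symbol were Eif1ax (0.98), Ctla2a (0.96), Sct (0.96), Mmp7 (0.96) and Sting1 (0.95). After group means were removed these were 0.89, 0.81, 0.67, 0.85 and 0.84. For Ass1 they were Myl12b, Lgals3bp, Fxyd5, Gbp2 and Tmx4 (0.95 to 0.96), and for Nos2 Nabp1, Alpk1, Spetex2g, Kcns2 and Lrrc2 (0.90 to 0.94). Odc1 had no gene above 0.80, with Isyna1 first. The samples share rats, slides and the pool, and these values are a description.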

How the data were processed

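Samples were labelled with Cy3 and hybridized with a Cy5-labelled colon pool to 2-colour arrays without a dye swap, per the labels. The deposited spot intensity values and the deposited log10 ratio of Cy5 over Cy3 came from Agilent Feature Extraction, version 9.1.3.1 in the file headers. The submitters' processing notes also name Partek, without its role.

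In R 4.3.3 with limma 3.58.1, mean signals were corrected by normexp (offset 50), loess was applied to the log2 ratio (Cy3 over Cy5) of each array, and non-uniform spots were dropped. A probe was kept when well above background on at least 5 of 24 arrays, and the brightest stood for its gene. Names came from accessions, current or older symbols and, added after some listed genes were found without a probe, descriptions. Arrays of 1 rat and tissue (4 samples had 2; the labels do not say whether the second is another tissue piece) were averaged. limma fitted 4 group means to 20 samples (16 residual degrees of freedom), two-sided, with Benjamini-Hochberg adjustment over 26776 features. Tumour and normal colon of 1 rat share the animal: after removal of group means they correlated across features at 0.08 to 0.57 (median 0.40), and a rat block was an alternative. With that block 12.3% of features passed in tumours against normal colon of DSS rats and 5.63% in the difference between tissues. Slides and slide sets were read from slide identifiers; slide set 2 and its scan day cannot be told apart. Arrays have no read depth, and their number limits the precision.

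The genes, the lists and the tests were chosen with earlier results of these data known. Named pathway genes are those with an adjusted p under 0.05, at most 3 per list and comparison by smallest p; 1 of them is counted but not reported here. Beyond Arg1, Ass1, Nos2 and Odc1 no likeness was computed. In data simulated for tumours against normal colon of DSS rats (26776 features), 97% of changes of 2 log2 units and 77% of changes of 1 were recovered. The simulated noise was independent between samples, without slide sets or the likeness of tissues from the same rat. These shares may therefore not hold for the real arrays. Results were recomputed under 29 other settings, of which 2 were chosen after seeing the data: each probe as its own feature, and the normal colon of DSS rats 1 and 5 as 1 sample. Figures were drawn with matplotlib 3.10.9.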

Additional observations from a re-analysis of the deposited data

Results flagged for a closer look

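In 40 sets of 1 gene and 1 group of rats, 2 held a rat far from the others of its group, and chance gives about 1 in 20. In normal colon of untreated rats, Nos2 was highest in rat 8 at 0.64, against 0.11 in the nearest rat; the mean of the squamous markers was 1.57 in that sample and -0.45 to -0.07 in the other untreated normal samples, and its part was not tested. In the same group Srm was highest in rat 4 at -0.0297, against -0.26 in the nearest rat, on an array where 89.7% of probes were above background.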

How the results depend on the processing

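Counts of genes past the threshold, over the 10 genes between tissues and over the 8 without Arg1 and Ass1 elsewhere, were recomputed under 18 alternatives that can change a ratio and with each of the 10 rats left out; Aquantile scaling leaves every ratio as it was and is not counted, and with the rat as a fixed block DSS against no treatment has no value. In tumours against normal colon of DSS rats, 2 genes became 0 within slide set 2 and 1, Ass1, without second arrays, without the 3 arrays of raised signal, with no filter on dim probes and with the normal colon of DSS rats 1 and 5 as 1 sample; Sat1 made it 3 with the rat as a fixed or random replicate block, the slide as block and array weights, and with 1 rat left out the count was 1 to 2. In untreated rats, where the count is a description, 5 became 2 within slide set 1, 3 with median centring and 6 with array weights, and 3 to 5 with 1 rat left out. For DSS in normal colon 1, Srm, became 0 within slide set 1, within slide set 2 and with median centring, and was 0 to 1 with 1 rat left out. For the difference between tissues 0 became 1, Nos2, with the slide as block, and stayed 0 with each rat left out. DSS in tumours gave 0 of the 8 genes under the 17 alternatives that gave a value. The Arg1 call in DSS rats held under 13 of 18 alternatives and with 4 of 10 rats left out, and its adjusted p ran from 0.00327 to 0.223. The Ass1 call held under 17 of 18 and 10 of 10. No called value changed sign. The rat block changed the Sat1 call in DSS rats (-0.70 ± 0.20, adjusted p = 0.0483) and the Slc7a3 call. With median centring the median of all features was 0.25 in tumours against normal colon of DSS rats, beside 0.02 in the main fit. It was 0.22 for DSS in tumours, beside 0.0057, and 0.38 for the difference between tissues, beside 0.02. In the first 2 of these comparisons Sat1 had 0.04 and -0.09 with median centring. The cause of these shifts was not tested. Weak signals limit Nos2 most.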
